A study of Mus musculus with 9 samples.

Results

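Lgr4, Lgr5 and Lgr6, the 4 R-spondins Rspo1 to Rspo4 and the ubiquitin ligases Znrf3 and Rnf43 make up a signalling unit of 9 genes, which were taken by gene symbol from the 24011 genes measured in mouse myoblasts given BMP4 or its antagonist GREM1. Each of the 9 had 1 probe set. The members were chosen by gene family around Lgr6, which had been selected on its measured differences between these same groups. The Lgr6 differences are therefore given with their intervals as a description and without a test, while the other members were tested among all genes.

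Myoblasts derived from satellite cells, the stem cells of skeletal muscle, were grown with 20% fetal bovine serum and basic FGF (2.5 ng/µl as labelled) and then moved to 2% horse serum for 24 h, the kind of medium that lets myoblasts stop dividing and form muscle fibres. The BMP4 group received 100 ng/ml of BMP4 protein, the GREM1 group 500 ng/ml of GREM1 protein, and the control group was a mock treatment. Each group had 3 arrays. BMP4, a secreted ligand, acts through BMP receptors and SMAD proteins, and GREM1 binds BMP ligands and keeps them from those receptors. Mouse strain, age and the number of animals are not given in the labels, nor whether replicates are separate cultures, so p-values measure only the spread between these samples.

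R-spondins are secreted proteins that strengthen Wnt signalling. They bind an Lgr receptor together with Znrf3 or Rnf43, membrane ubiquitin ligases that otherwise mark Frizzled Wnt receptors for removal, and the bound ligase is cleared from the cell surface so that Frizzled stays there. In mouse muscle, Rspo1 is known for a part in myoblast differentiation and fusion, Lgr5 and Lgr6 are known as markers of epithelial stem cells, and in Xenopus and human cells RSPO2 and RSPO3 also act on a BMP receptor, BMPR1A, through the same ligases.

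The promoters of Lgr6, the family member that differed between the groups, and of Lgr4, its relative that did not pass the test, are shown from 250 bases before the start to 50 after it, 5′ to 3′ on the strand of the gene, from RefSeq on build GRCm38.p6. Lgr6 lies on the minus strand at chr1:135105227-135105526, and Lgr4 on the plus strand at chr2:109917397-109917696. Capitals mark the E-box CANNTG, the site type that myogenic factors bind.
Lgr6: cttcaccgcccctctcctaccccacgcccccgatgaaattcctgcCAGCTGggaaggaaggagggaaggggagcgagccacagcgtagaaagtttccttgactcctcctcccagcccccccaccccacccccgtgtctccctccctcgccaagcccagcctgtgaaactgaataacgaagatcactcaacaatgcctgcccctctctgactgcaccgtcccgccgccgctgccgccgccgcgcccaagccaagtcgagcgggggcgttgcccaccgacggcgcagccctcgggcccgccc
Lgr4: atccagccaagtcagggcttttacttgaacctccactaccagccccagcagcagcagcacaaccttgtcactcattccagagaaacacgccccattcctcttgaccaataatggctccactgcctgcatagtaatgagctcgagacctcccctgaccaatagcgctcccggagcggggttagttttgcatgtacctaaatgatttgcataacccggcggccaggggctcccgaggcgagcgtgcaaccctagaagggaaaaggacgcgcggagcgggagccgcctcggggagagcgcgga
The Lgr6 window is 67.7% G or C and the Lgr4 window 58.3%. Motifs were searched on both strands. The letters of the BMP-SMAD element GGCGCC, the shorter SMAD element CAGAC and the TCF/LEF forms CTTTGAA and CTTTGAT are in neither window. GGCGCC was present in 11.9% of all 32851 RefSeq promoter windows of 300 bases, CAGAC in 49.6%, CTTTGAA in 5.14%, CTTTGAT in 3.73% and CANNTG in 72.3%. RefSeq promoters matched 5 of the 9 members, with 6 windows in all. Any window filed under a member symbol on a chromosome where no member lies was left out of this count. The Rspo1 window held 1 GGCGCC, beginning 9 bases before the start, and 1 CAGAC. The Rspo4 window held 1 CAGAC and 1 E-box, and both Rnf43 windows held 1 CAGAC, 1 of them also an E-box. A match is a description of the letters and not of binding.

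Levels are the authors' RMA values on the log2 scale. The 30th percentile of the named probe sets was 3.89 to 4.02 depending on the array, and the 17142 genes that exceeded it on 3 or more arrays were tested. Of the 9 members 8 passed, 7 of them above that level on all 9 arrays and Rspo3 on 6. Lgr5 was below it on all 9. The myogenic identity of the cells was checked on 10 markers, all above the 30th percentile on every array, among them the stem cell factor Pax7 at 7.75 with BMP4, 7.39 with GREM1 and 7.59 in the controls and the differentiation factors Myod1 (9.77, 9.61 and 9.35) and Myog (10.3, 10.9 and 10.0), of which none passed the test against control. Of the 10 markers 0 passed with BMP4, where 0.117% of all tested genes did, and with GREM1, where 2.07% of all tested genes rose, 2 passed. These, Cdh15 and Itga7, named after their values were seen, rose by 0.91 and 1.00 (limma, adjusted p = 0.00348 and 0.00321). Control replicate 1 stood apart on the second principal component of all tested genes, at 31.6 where the next array was at 6.12, and the effect of leaving it out is given where it changed a result. In a sample of many cells, fewer cells that express a gene and less RNA per cell cannot be told apart.

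**Figure D1:**
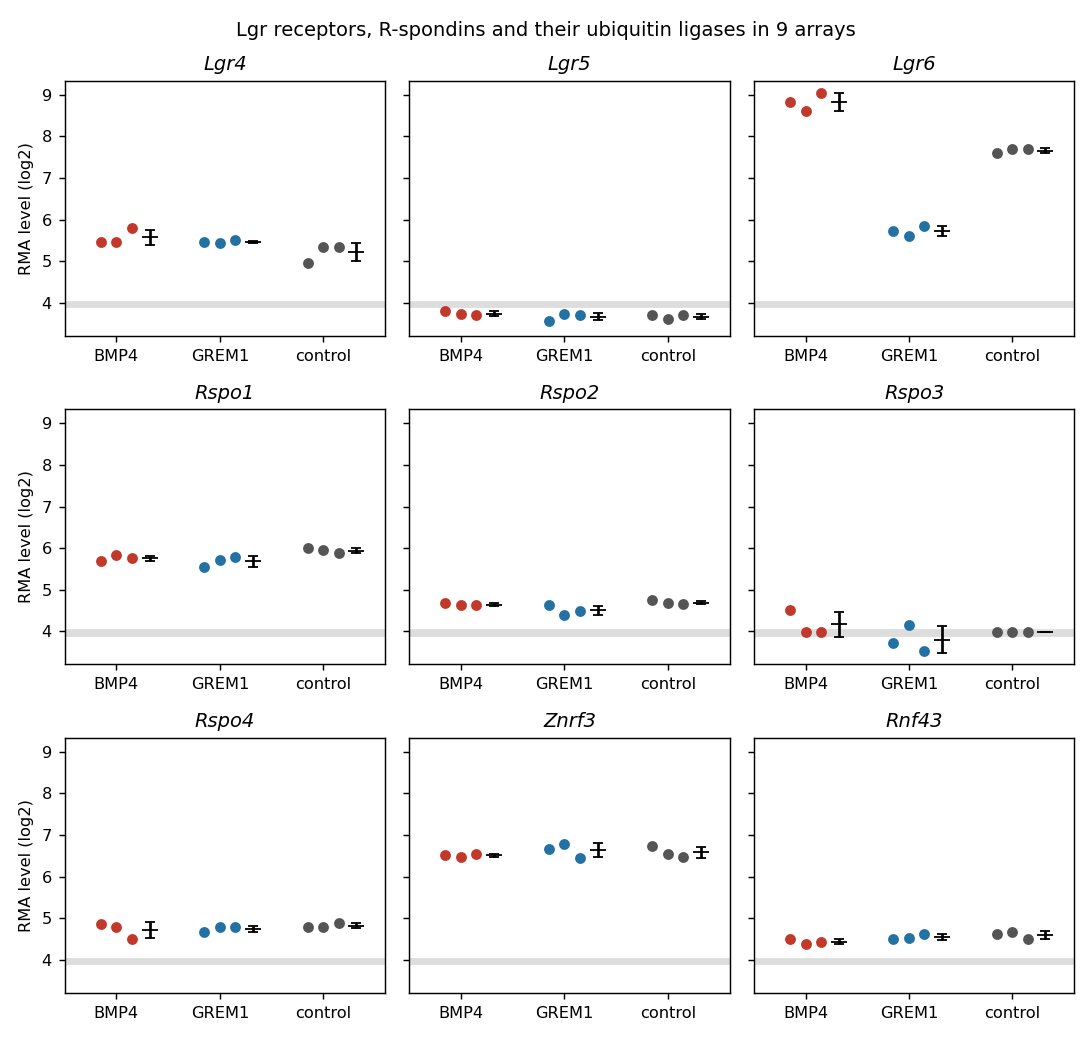
RMA level (log2) of each of the 9 genes on each of the 9 arrays, by group, with the group mean and SD beside the points, and the 30th percentile range of 3.89 to 4.02 as a grey band. Lgr6 forms 3 separate bands, at 8.61 to 9.05 with BMP4, 5.60 to 5.84 with GREM1 and 7.60 to 7.69 in the controls, while Lgr5 lies below the grey band on every array.

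Lgr6 encodes a 7-transmembrane receptor with leucine-rich repeats outside the cell, to which R-spondins bind. Its levels were 8.83, 8.61 and 9.05 on the BMP4 arrays, against 7.60, 7.69 and 7.69 on the control arrays. On the GREM1 arrays they were 5.72, 5.60 and 5.84. The 3 groups did not overlap, with the lowest BMP4 array 0.92 above the highest control and the highest GREM1 array 1.76 below the lowest control.

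Lgr6 averaged 8.83 ± 0.22 with BMP4 and 7.66 ± 0.053 in the controls (SD, n = 3 each), a difference of 1.17 ± 0.12 (SE) on the log2 scale with a 95% interval of 0.91 to 1.43, or 2.25-fold. With GREM1 it averaged 5.72 ± 0.12 (SD, n = 3), a difference from the controls of -1.94 ± 0.12 (95% interval -2.20 to -1.68), or 3.84-fold lower. Between BMP4 and GREM1 the difference was 3.11 (95% interval 2.85 to 3.37), or 8.65-fold. The BMP4 and GREM1 arrays thus lay on opposite sides of the controls, and both comparisons use the same 3 control arrays. Among the 17142 tested genes its rise with BMP4 ranked 8th and its fall with GREM1 5th, which are the values for which it was chosen. Over 18 alternative settings, left-out arrays among them, the difference lay between 1.06 and 1.28 with BMP4 and between -1.998 and -1.88 with GREM1.

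Lgr4, the receptor of the family with the widest known expression in adult mouse tissues, was at 5.47, 5.47 and 5.79 on the BMP4 arrays, 5.47, 5.45 and 5.50 on the GREM1 arrays and 4.96, 5.34 and 5.34 on the control arrays. All BMP4 and all GREM1 arrays lay above all controls, and control replicate 1 was the lowest of the 9. The difference was 0.36 ± 0.13 with BMP4 (95% interval 0.071 to 0.64) and 0.25 ± 0.13 with GREM1 (95% interval -0.032 to 0.54), and neither passed limma's test over all genes (adjusted p = 0.537 and 0.305). Without control replicate 1 the differences were 0.23 and 0.13. Both additions thus gave Lgr4 values on the same side of the shared controls, unlike Lgr6, and BMP4 minus GREM1 was 0.10 (adjusted p = 0.746).

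Lgr5, a Wnt target gene known as a marker of intestinal stem cells, lay between 3.70 and 3.80 on the BMP4 arrays, 3.56 and 3.73 on the GREM1 arrays and 3.61 and 3.70 on the control arrays. All 3 ranges overlap and lie below the 30th percentile of the arrays. In a fit of all genes without a filter its differences were 0.072 ± 0.075 with BMP4 and -0.0061 ± 0.075 with GREM1 (limma, adjusted p = 0.849 and 0.983).

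Rspo1, the first of the R-spondin ligands, had 5.70, 5.82 and 5.76 on the BMP4 arrays and 5.54, 5.72 and 5.78 on the GREM1 arrays, against 5.996, 5.94 and 5.87 on the control arrays. Its control arrays were the highest in both comparisons and did not overlap with either group. The differences of -0.18 ± 0.088 with BMP4 (95% interval -0.37 to 0.018) and -0.26 ± 0.088 with GREM1 (95% interval -0.46 to -0.063) did not pass (limma, adjusted p = 0.652 and 0.132). The value for GREM1 was the smallest adjusted p among the 8 members other than Lgr6.

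Rspo2, which in mice is needed for limb and lung development, lay between 4.62 and 4.67 on the BMP4 arrays, 4.40 and 4.62 on the GREM1 arrays and 4.66 and 4.74 on the control arrays. The GREM1 and control arrays did not overlap, by a margin of 0.040. GREM1 minus control was -0.19 ± 0.080 and BMP4 minus control -0.051 ± 0.080 (limma, adjusted p = 0.230 and 0.895).

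Rspo3, known in mice for its part in placental and vascular development, was near the lower limit of what was tested. It was at 3.99 on BMP4 replicates 2 and 3 and on all 3 controls, a value equal to all deposited digits, and at 4.50 on BMP4 replicate 1. The GREM1 arrays were at 3.71, 4.15 and 3.53 and overlap the others. Equal values were common in the table, with 3.26% of the tested genes having the same value on at least 5 arrays, and the cause was not tested. BMP4 minus control was 0.17 ± 0.18 and GREM1 minus control -0.19 ± 0.18 (limma, adjusted p = 0.827 and 0.600), and without BMP4 replicate 1 the BMP4 difference was 0.

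Rspo4, which in humans is mutated in inherited absence of nails, lay between 4.51 and 4.86 on the BMP4 arrays, 4.65 and 4.78 on the GREM1 arrays and 4.78 and 4.89 on the control arrays. The groups overlap. Its differences from control were -0.10 ± 0.10 with BMP4 and -0.082 ± 0.10 with GREM1 (limma, adjusted p = 0.818 and 0.713).

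Of the ligases that R-spondins remove, Znrf3 was at 6.52, 6.48 and 6.54 on the BMP4 arrays, 6.67, 6.79 and 6.45 on the GREM1 arrays and 6.73, 6.54 and 6.46 on the control arrays, and all groups overlap. BMP4 minus control was -0.069 ± 0.11 and GREM1 minus control 0.056 ± 0.11 (limma, adjusted p = 0.892 and 0.823). Rnf43, its close relative, lay between 4.37 and 4.49 on the BMP4 arrays, 4.49 and 4.61 on the GREM1 arrays and 4.49 and 4.67 on the control arrays. The highest BMP4 array and the lowest control shared the value 4.49. The differences were -0.16 ± 0.081 with BMP4 and -0.051 ± 0.081 with GREM1 (limma, adjusted p = 0.658 and 0.782).

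**Figure D2:**
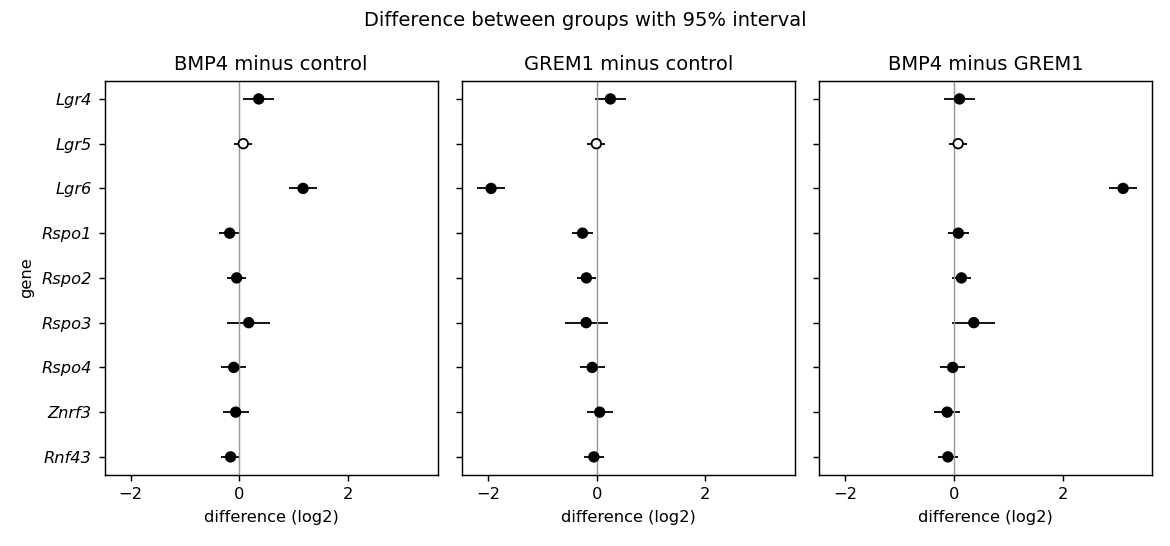
Difference between groups on the log2 scale (point) with its 95% interval from limma (line) for each gene, with Lgr5 as an open point because it was fitted without the filter. Lgr6 lies at 1.17, -1.94 and 3.11 in the 3 panels, and the intervals of the other genes reach from -0.59 to 0.76.

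Across the 8 members other than Lgr6 and the 3 comparisons, the 24 intervals reached at most -0.59 and 0.76, both for Rspo3. The Lgr6 values lie outside all of these intervals, a contrast that was not tested because Lgr6 was chosen for its size. With BMP4, 0 of the other 7 tested members passed in limma at an adjusted p of 0.05, where 0.117% of all tested genes did, and 1 of the 7 (Lgr4) had an unadjusted p under 0.05. With GREM1 it was 0 of 7, where 4.28% of genes passed, with 2 (Rspo1 and Rspo2) at an unadjusted p under 0.05. It was also 0 of 7 between BMP4 and GREM1, where 6.45% passed, with 0 at an unadjusted p under 0.05. The share of all tested genes under an unadjusted p of 0.05 was not counted. The counts of 1, 2 and 0 of 7 at that threshold therefore have no background to be read against. With the replicate number as a block, 65 genes in all passed with BMP4 and 1985 with GREM1, against 20 and 734 without it, and 0 of these 7 members did in either.

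Arrays of 2 of these 7 members (Lgr4 and Rspo1) did not overlap between BMP4 and control, where 11.2% of all tested genes did not. For GREM1 and control it was 3 of 7 (Lgr4, Rspo1 and Rspo2), where 24% of genes did not, and for BMP4 and GREM1 0 of 7, where 24.5% did not. The median difference over the 7 was -0.069 with BMP4 and -0.082 with GREM1, where the medians over all tested genes were -0.0060 and -0.0057.

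Genes whose levels were most like those of Lgr6 were ranked by Pearson's r over the 9 arrays among 15281 tested genes, predicted genes and clones left out. The 8 highest were Ptger4, a receptor for prostaglandin E2 (r = 0.997), Car8, a carbonic anhydrase-related protein (0.992), Ube2j1, a ubiquitin-conjugating enzyme of the endoplasmic reticulum (0.990), Sp7, a transcription factor of osteoblasts (0.989), Dcaf13 (0.988), Hey1, a transcriptional repressor downstream of Notch and BMP signals (0.988), Tiam2, an exchange factor for Rac (0.987), and Dpysl3 (0.987). The lowest were Arhgap18 (-0.993), Slc11a2, an iron transporter (-0.992), and Fgf9, a fibroblast growth factor (-0.986). The 8 highest share the order of group means with Lgr6, the 3 lowest have it reversed, and the 8 differ widely in size, from Sp7 with 9.11 in BMP4, 4.56 in GREM1 and 7.13 in control arrays to Dcaf13 with 9.44, 9.07 and 9.32. The arrays share their groups, and 105 genes had r above 0.95. On deviations from the group means the same 9 arrays gave r = -0.857 for Sp7 and 0.848 for Dpysl3. Sp7 and Lgr6 ran in opposite directions within the BMP4 and the GREM1 group. In the controls both were higher on replicate 2 than on replicate 1 (Sp7 7.19 and 7.10, Lgr6 7.69 and 7.60). Among the other tested members r with Lgr6 ran from -0.452 for Znrf3 to 0.650 for Rspo2.

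**Figure D3:**
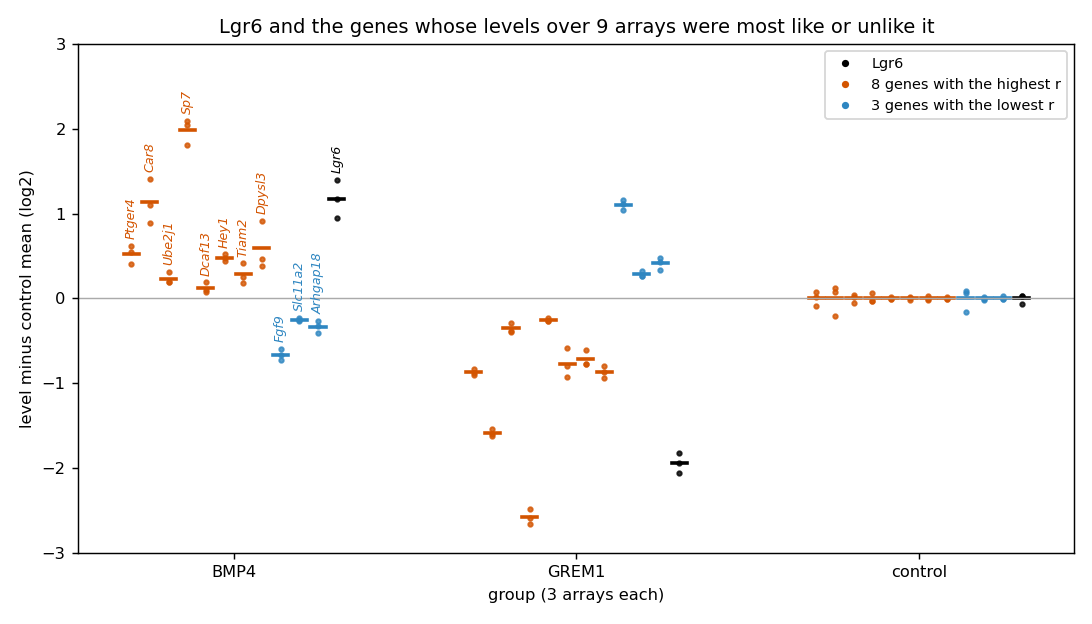
Level minus the control mean (log2) of Lgr6, of the 8 genes with the highest and of the 3 with the lowest Pearson's r with it, with each array as a point and the group mean as a bar. Lgr6 (black) averages 1.17 with BMP4 and -1.94 with GREM1, between Sp7 (1.98 and -2.57) and Car8 (1.13 and -1.59).

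Of the 5 protein-coding genes on either side in RefSeq order, chosen after values were seen, 7 were tested and their values ran from -0.24 to 0.18 with BMP4, with 0 past the test. With GREM1 the next gene, Ube2t, a ubiquitin-conjugating enzyme of DNA crosslink repair, fell by 0.91 ± 0.16 (limma, adjusted p = 0.0182), and the other 6 did not pass. Ube2t and Rnpep, an aminopeptidase, were higher with BMP4 than with GREM1 by 1.09 and 0.49 (adjusted p = 0.00433 and 0.0256). The members lie on chromosomes 1 (Lgr6), 2 (Lgr4 and Rspo4), 4 (Rspo1), 10 (Lgr5 and Rspo3), 11 (Znrf3 and Rnf43) and 15 (Rspo2). Over the neighbours of all 9 members 73 were tested, of which 0 passed with BMP4 and 3 with GREM1, where 0.117% and 4.28% of all tested genes did, and 7 passed between BMP4 and GREM1, where 6.45% did. Kremen1, the neighbour of Znrf3 and a co-receptor for the Wnt inhibitor Dkk1, is described with its pathway.

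Among all genes tested, 0.0933% rose and 0.0233% fell with BMP4, 2.07% rose and 2.21% fell with GREM1, and 3.62% were higher and 2.83% lower with BMP4 than with GREM1, beside which the following lists stand. Of 12 BMP readout genes tested, 2 rose with BMP4, and 6 fell with GREM1 (3 and 8 with the replicate block), with medians of 0.50 and -0.79. Smad6, an inhibitory SMAD, was at 7.06, 7.14 and 7.42 with BMP4 and 5.02, 5.34 and 4.57 with GREM1, against 6.25, 6.13 and 6.13 in the controls. Its groups did not overlap, and it fell with GREM1 by 1.20 (limma, adjusted p = 0.00784), while BMP4 minus control was 1.03 (adjusted p = 0.0796). Sp7 rose by 1.98 with BMP4 and fell by 2.57 with GREM1 (limma, adjusted p = 2.67e-05 and 4.63e-06). Smad7, another inhibitory SMAD, rose by 1.18 and fell by 1.03 (adjusted p = 0.0154 and 0.00451), its call with BMP4 being lost without any 1 control or BMP4 array (highest adjusted p = 0.0950). Id1, an inhibitor of myogenic factors, fell by 1.32 with GREM1 (adjusted p = 0.0117, and 0.0557 without GREM1 replicate 1) and was 0.52 with BMP4 (adjusted p = 0.600).

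Wnt receptors, on which the ligases act, had 15 tested members. With BMP4 0 passed in limma, with a median of 0.16, and Fzd6, a Frizzled receptor, had the smallest unadjusted p (0.00375, adjusted p = 0.345) at 0.45. With GREM1 1 fell and 0 rose, with a median of 0.081. Fzd6 was at 6.31, 6.37 and 6.31 with BMP4 and 5.32, 5.34 and 5.45 with GREM1, against 6.17, 5.73 and 5.73 in the controls. All GREM1 arrays lay below and all BMP4 arrays above the controls, and its fall with GREM1 of 0.50 ± 0.12 (limma, adjusted p = 0.0481) was lost without any array other than control replicate 2 (highest adjusted p = 0.149). That call was kept in 7 of 18 alternatives. It was also lost in a fit of only the groups compared, with renormalization and without the filter. Between BMP4 and GREM1 Fzd6 was higher by 0.96 (adjusted p = 0.00142), and that call held under all 18 alternatives.

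Of 16 tested Wnt ligands 0 passed with BMP4, where Wnt9b was lowest in unadjusted p (0.0117) at -0.37, and 1 fell with GREM1. Wnt5a, a ligand known mainly for signals that bypass beta-catenin, fell by 0.58 (adjusted p = 0.0416), a call lost without any 1 control, BMP4 replicate 1 or 2 or GREM1 replicate 1 or 2 (highest adjusted p = 0.148). That call was kept in 6 of 17 alternatives. It was also lost in a fit of only the groups compared, with renormalization, with centring and without the filter. With the replicate block 2 ligands rose and 1 fell. Between BMP4 and GREM1 Wnt5a was higher by 0.78 and Wnt7b lower by 0.57 (limma, adjusted p = 0.00814 and 0.0248), the Wnt7b call being lost without BMP4 replicate 2 or 3 or any 1 GREM1 array.

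Of 16 tested Wnt inhibitors 0 passed with BMP4, Kremen1 having the smallest unadjusted p (0.00136, adjusted p = 0.248) at 0.54. With GREM1 1 fell and 0 rose (1 and 1 with the replicate block). Sfrp2, a secreted Frizzled-related protein, was at 5.97, 5.95 and 6.57 with BMP4 and 4.29, 4.71 and 4.53 with GREM1, against 5.57, 5.39 and 5.66 in the controls. The groups did not overlap, and it fell with GREM1 by 1.03 ± 0.18 (limma, adjusted p = 0.0152), a call lost without control replicate 1 or 3 or GREM1 replicate 1 (highest adjusted p = 0.0642). Between BMP4 and GREM1 Sfrp2 and Kremen1 were higher by 1.65 and 0.54 and Apcdd1, a membrane inhibitor, lower by 0.86 (adjusted p = 5.94e-04, 0.0275 and 0.00439), the Kremen1 call being lost without BMP4 replicate 1 or 2 or GREM1 replicate 1 or 3.

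Downstream of the receptors, 16 genes of the beta-catenin destruction complex, Dishevelled and TCF factors were tested, with 0 past the test for BMP4 and 1 rise for GREM1 (3 with the replicate block). Lef1, a factor that partners beta-catenin on DNA and also its target, was at 6.28, 6.22 and 6.39 with BMP4 and 7.43, 7.26 and 7.45 with GREM1, against 6.79, 6.78 and 6.78 in the controls. Its groups were in the opposite order to those of Lgr6 and did not overlap. It rose with GREM1 by 0.60 ± 0.084 (limma, adjusted p = 0.00641) and was -0.48 with BMP4 (adjusted p = 0.0832). Of 13 tested feedback targets of Wnt and beta-catenin, which hold Lef1 too, 0 passed with BMP4, and with GREM1 Lef1 rose and Myc, a growth-promoting transcription factor, fell by 0.62 (adjusted p = 0.0117), with a median of -0.019. Axin2, a widely used readout of the pathway, was -0.35 with BMP4 and -0.17 with GREM1 (adjusted p = 0.463 and 0.417). Axin2 had the same value, 4.84, on every GREM1 array, BMP4 replicate 2 and control replicate 3. It falls outside the naming rule and was chosen after its values were seen.

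Heparan sulfate proteoglycans of the cell surface, to which R-spondins also bind, had 8 tested members, of which 0 passed with BMP4 and 1 rose with GREM1 (2 rose and 2 fell with the replicate block, and 1 rose with BMP4). Gpc1, a glypican, rose with GREM1 by 0.86 (limma, adjusted p = 0.00564), and the syndecan Sdc3 was 0.56 with BMP4 (adjusted p = 0.0504). Between BMP4 and GREM1 2 were higher and 3 lower, among them Sdc3 (0.86) and the glypicans Gpc4 (-0.67), Gpc1 (-0.84) and Gpc6 (0.89, a call lost without GREM1 replicate 1 or 2). Of the other hormone receptors with leucine-rich repeats 2 were tested, and the relaxin receptor Rxfp1 was lower with BMP4 than with GREM1 by 0.48 (log2 difference -0.48, adjusted p = 0.0177), a call lost without BMP4 replicate 2 or 3 or GREM1 replicate 2 or 3.

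**Figure D4:**
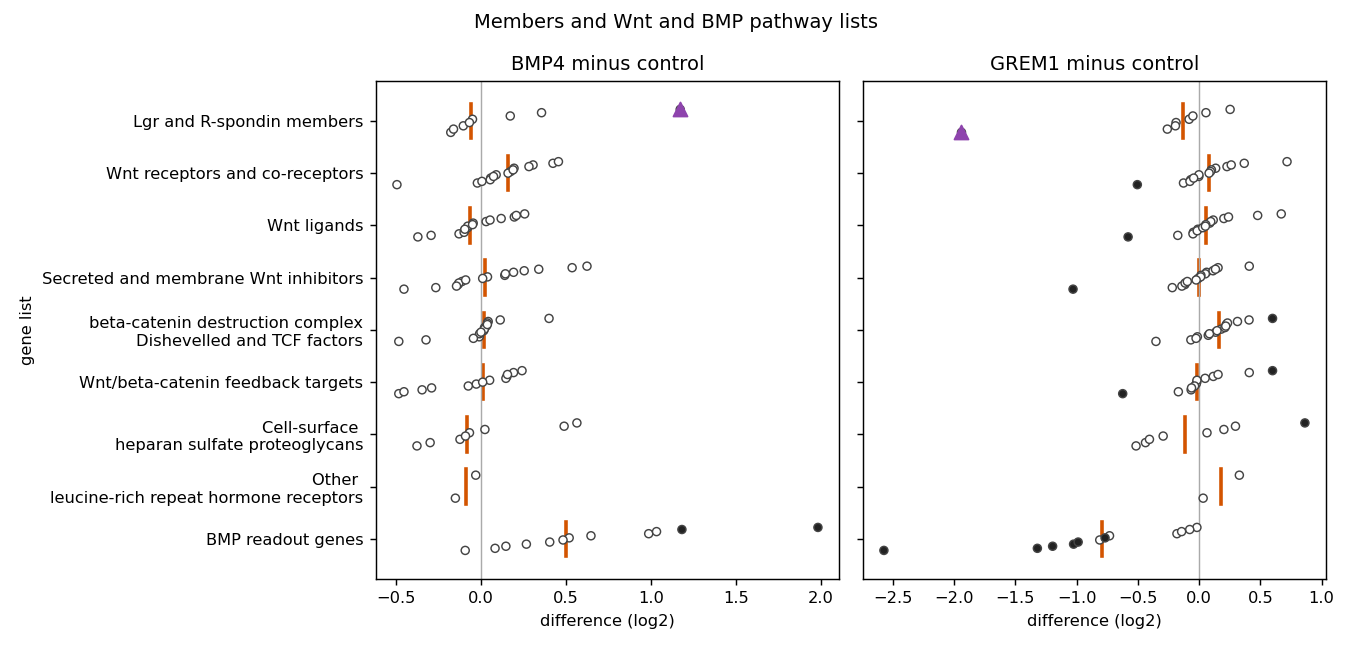
Difference on the log2 scale for each tested gene of the family and of 8 pathway lists, for BMP4 minus control and GREM1 minus control, with filled points for an adjusted p under 0.05, a triangle for Lgr6, which has no test, and a bar for the median of each list. In the BMP readout list 2 points are filled with BMP4 and 6 with GREM1, and in each Wnt list 0 are filled with BMP4.

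Markers of 8 other cell types were looked at beside Lgr6. Of 23 tested markers 1, Sp7, was higher with BMP4, and 2, Sp7 and Pparg, a factor of fat cells, were lower with GREM1. Sp7, Pparg and the pericyte marker Cspg4 were higher with BMP4 than with GREM1, by 4.56, 1.46 and 0.56, and the pericyte marker Abcc9 and the tendon factor Scx were lower (log2 differences -0.91 and -0.95). The summed level of the 6 osteoblast markers (linear scale) was 583 to 701 with BMP4, 129 to 138 with GREM1 and 251 to 265 in the controls, with 4 of the 6 above the 30th percentile on each array and the bone matrix gene Ibsp below it on every array. Sp7, 1 of the 6, had the highest level of them on every BMP4 and control array and so weighed most in those sums. Of the 4 osteoblast markers tested, Sp7 alone passed in any comparison. The bone gene Bglap averaged 4.72 with BMP4, 5.11 with GREM1 and 5.12 in the controls (log2). The sum of the 4 adipocyte markers was 159 to 186, 89.5 to 95.6 and 141 to 177 in the same groups, with 2 of 4 above the 30th percentile and Adipoq and Fabp4 below it on every array. Pparg had the highest level of the 4 on every array and so weighed most in these sums. Plin1, the other tested adipocyte marker, averaged 4.96 with BMP4, 4.95 with GREM1 and 4.98 in the controls (log2). The sum of the 3 tendon markers was 556 to 829 with BMP4, 1292 to 1433 with GREM1 and 842 to 1083 in the controls, with 2 of 3 above the 30th percentile and Tnmd below it on every array. These tendon sums did not overlap between groups and had the opposite order to Lgr6. Scx had the highest level of the 3 on every array and so weighed most in the sums. Mkx, the other tested tendon marker, had the same order of group means as Lgr6. It averaged 4.57 with BMP4, 3.98 with GREM1 and 4.35 in the controls (log2). Its BMP4 and control arrays overlapped, and it passed in no comparison (BMP4 minus GREM1 0.59, limma, adjusted p = 0.0825). The part of other cell types in the Lgr6 differences was not tested.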

How the data were processed

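RNA of 9 samples was measured on Affymetrix arrays. Per the labels' protocols, total RNA was amplified before labelling. The authors deposited log2 values, for which the submitters' processing notes name RMA and Affymetrix Expression Console. A chip definition was not used here, and a genome build entered only through the RefSeq promoter windows and gene order, not the levels. Values ran from 1.80 to 12.7, with array medians of 5.00 to 5.12. Precision is limited by the 3 arrays in a group. Of 24973 probe sets 24015 had 1 gene symbol in the platform annotation and none had several. The other 958 are unnamed here and were left out. Symbols were matched by Entrez ID to RefSeq, with 93 not found and 0 changed. Where a gene had several probe sets (4 genes), the one with the highest mean was taken.

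Two-sided limma tests (version 3.58.1, R 4.3.3, lmFit then eBayes) took all 9 arrays in 1 fit, with Benjamini-Hochberg adjustment over 17142 genes and a threshold of 0.05. The test was run on simulated data with independent arrays. These held neither the correlation by replicate number nor the equal values of the real arrays, so the check does not cover them. Members, lists and the naming rule were chosen with earlier results of these data known. The rule names all members, up to 4 called genes of a pathway list (otherwise that with the smallest unadjusted p), the genes most like Lgr6, Id1, Smad6, Smad7, Sp7, Pax7, Myod1 and Myog.

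Groups share replicate numbers in the labels. After group means were removed, arrays of the same number correlated at 0.170 to 0.580 for BMP4 and control and 0.118 to 0.473 for GREM1 and control, so the numbers were taken to pair these groups. For BMP4 and GREM1 they correlated at 0.0885 to 0.423, and 2 of 3 pairs exceeded the cut of 0.1 used for pairing. The numbers were therefore not taken to pair them, although numbers that pair both groups with the controls would pair them too. The p-values printed are from fits without the block and so leave out any pairing. Alternatives were the block, a fit of the groups compared, an intensity trend, array weights, renormalization, centring, other filters, the mean of probe sets and leaving out each array.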

Additional observations from a re-analysis of the deposited data

How the results depend on the processing

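In all, 30 results were recomputed under 18 alternatives, or 17 for Rspo2, Rspo3, Rspo4 and Rnf43, which the stricter filter left out. Lgr6 kept its direction in all 18, and its 3 differences moved by less than 0.22, the largest SD of its groups (BMP4). The SD of its controls was 0.053, and its BMP4 minus control difference ran from 1.06 to 1.28. The block, the fit of the groups compared, the trend, the filters and the mean of probe sets leave the Lgr6 difference unchanged by construction. None of the 21 tested differences of the other members crossed the threshold, the smallest limma adjusted p being 0.0810 for Rspo1 in GREM1 minus control. Of the 21, 17 never changed sign, although Rspo3 in BMP4 minus control was 0, with no direction, without BMP4 replicate 1. The other 4 changed sign and never passed. For BMP4 minus GREM1, Rspo4 was 0.018 with array weights and lay between -0.095 and 0.081 when 1 array was left out, positive without BMP4 replicate 3, and Lgr4 lay between -0.0041 and 0.16, negative without BMP4 replicate 3. Znrf3 lay between -0.13 and 0.0085 for BMP4 minus control, positive without control replicate 1, and between -0.019 and 0.15 for GREM1 minus control, negative without control replicate 3 (-0.0026) or GREM1 replicate 2.

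The counts over all genes moved more. With the replicate block 65 genes passed for BMP4 and 1985 for GREM1 against control, and 2192 for BMP4 against GREM1, where the numbers do not pair the arrays by the correlation rule and 7 of 9 arrays correlated best with their own number. A fit of only the groups compared gave 5 and 437 genes against control. Array weights gave 68 genes for BMP4 against control and 1768 for BMP4 against GREM1, and the stricter filter gave 31 for BMP4 against control. Leaving out each array gave 2 to 17 genes for BMP4 against control and 245 to 898 for GREM1 against control. Between BMP4 and GREM1 it gave 560 to 1155. The BMP4 against control count was 2 if control replicate 1 or 3 was dropped and 3 if control replicate 2 was. Dropping BMP4 replicate 1 left 10, BMP4 replicate 2 left 4, BMP4 replicate 3 left 13, and GREM1 replicate 1 or 2 left 12. In GREM1 against control, dropping GREM1 replicate 1 left 248 genes, GREM1 replicate 2 left 245, GREM1 replicate 3 left 482, BMP4 replicate 2 left 486, control replicate 1 left 307 and control replicate 3 left 267. In BMP4 against GREM1, dropping BMP4 replicate 2 left 692, BMP4 replicate 3 left 686, GREM1 replicate 1 left 560 and GREM1 replicate 2 left 595. The cause was not tested. The 8 genes most like Lgr6 by Pearson's r shared 0 with the 8 by Spearman's rho and 0 with the 8 by r of deviations from group means. Lgr5 and Rspo3 lie near or below the 30th percentile, where the arrays cannot tell a low level from none.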
